A study of Mus musculus with 6 samples.

Results

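Mest, Peg10 and Sgce are 3 genes of proximal mouse chromosome 6 that are transcribed mainly from the paternal copy. They were taken by name from the deposited count table, 3 of its 53509 rows, and were chosen by their counts per library in these samples, with earlier results known. Their levels in control and injured libraries are therefore given as a description, without a test.

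RNA was sequenced from 6 samples of C57BL/6 mice, 3 labelled wild type (control 1 to 3) and 3 labelled with myocardial ischemia-reperfusion injury (MIRI 1 to 3), in which blood flow to heart muscle is stopped and later let back. All were labelled as total RNA, and the design text gave an age of 21 days. Neither sex nor time after injury is stated in the labels. The tissue was named as retina in one field, as intervertebral disc in the extraction protocol and as heart by the condition. The deposited files also call the MIRI samples mutant, so genotype, injury and anything else that differs between the groups cannot be told apart.

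Genomic imprinting silences 1 parental copy of a gene through DNA methylation set in the germ line. Mest encodes a hydrolase-like protein of the endoplasmic reticulum that is active in embryonic mesoderm and in expanding fat tissue. Peg10 derives from a retrotransposon and encodes Gag- and Pol-like proteins needed in the placenta. Sgce encodes epsilon-sarcoglycan, a membrane protein of the dystrophin-glycoprotein complex, and its loss in people causes myoclonus dystonia.

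Row names and GRCm38 positions disagree for most of the table, so the place of each member was checked first. On GRCm38 the Mest row covers 30723546 to 30748464 of chromosome 6 on the plus strand, 1 bp before the span in GENCODE M21, and 99.5% of its 3945 bp fall on Mest exons. Peg10 (4747306 to 4760517, plus strand, 6667 bp of exon) and Sgce (4674350 to 4747207, minus strand, 10612 bp) fall on their own exons over 100% of their length. Of the rows that precede Mest on the chromosome, Mest included, 324 of 337 (96.1%) were in place, against 0 of 2677 after it. No other row was assigned to any of the 3 genes by position. Mest shares 912 bp, 23.1% of its row, with the antisense row Copg2. By the recorded counting options a read pair on such a shared stretch is given to neither row. Other genes below are named by the GRCm38 exons that their rows cover, most of them only in part. Of all rows, 3.11% were in place. Naming by position assumes that the reads were placed on GRCm38, which is not stated and was not tested. If they were placed on another build that matches the row names, the deposited names would hold instead. Most genes named below would then be misnamed, while Mest, Peg10 and Sgce carry the same name either way.

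Peg10 and Sgce start 99 bp apart and are read in opposite directions. The Peg10 transcript carries a slippery heptamer, at which ribosomes can slip back by 1 base to pass from the Gag-like to the Pol-like reading frame. The heptamer occurs 1 time in the 6667-base transcript Peg10-202, at chr6:4755327-4755333 on the plus strand. It is shown because it sets Peg10 apart from ordinary coding genes, in capitals, in a run that ends with the stop codon of the first frame:
Peg10 frameshift site: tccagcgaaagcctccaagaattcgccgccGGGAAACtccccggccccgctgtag
The first frame is 376 codons long, its stop begins 15 bases after the heptamer, and the second frame is open for 635 codons. Counts per row do not tell these proteins apart.

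The 250 bases before the Mest start at 30738050, chr6:30737800-30738049 on the plus strand of GRCm38, are shown because imprinting marks act on CG pairs. Capitals mark each CG:
Mest upstream: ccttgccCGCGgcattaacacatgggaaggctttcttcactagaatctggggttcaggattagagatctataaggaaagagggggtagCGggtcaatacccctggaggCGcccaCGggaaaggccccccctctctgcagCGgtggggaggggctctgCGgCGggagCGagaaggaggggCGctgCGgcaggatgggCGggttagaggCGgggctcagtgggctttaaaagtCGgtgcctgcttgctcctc
This window holds 14 CG, and 29.4% of 32851 windows of equal length before annotated starts hold as many or more. Such windows were available for 3 Mest starts. The one before 30738053 also holds 14 CG. The one before 30733506 holds 7, and 46.3% of windows hold as many or more. Methylation was not measured. An intron of Mest also holds the hairpin of miR-335, whose mature forms RefSeq gives as follows, with the seed (bases 2 to 8) in capitals:
miR-335-5p: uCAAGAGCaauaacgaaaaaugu
miR-335-3p: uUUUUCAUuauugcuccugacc

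Mest was lower in every MIRI library than in any control library. The control libraries held 433, 2329 and 1171 Mest counts, in the order 1 to 3, and the MIRI libraries 185, 53 and 73. As counts per 1000000 counts of the library (CPM), these were 58.7, 319 and 127 against 24.9, 7.73 and 9.89. The lowest control, control 1, was 2.36 times the highest MIRI library, MIRI 1, so the groups did not overlap. Over all 15777 rows with enough counts to test, MIRI lay wholly below control in 5.18%. Since the choice of Mest used this contrast, nothing is read from that share. By edgeR, 0 of these rows (0%) passed as higher and 0 (0%) as lower at an adjusted p of 0.05, while 256 (1.62%) higher and 429 (2.72%) lower rows had an unadjusted p under 0.05.

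The mean of Mest was 168 ± 135 CPM (SD, n = 3) in controls and 14.2 ± 9.35 CPM in MIRI, a ratio of 11.9. The fitted log2 fold change, MIRI over control, was -3.56 ± 0.63 (SE, edgeR). A lower value was fitted for 0.139% of all rows tested. Since the choice of Mest used this contrast, nothing is read from this share either. The size of the difference rests on 1 library of each group. Without control 2, the highest, the ratio of means was 6.54 and the log2 fold change -2.75, and without MIRI 1 they were 19.1 and -4.20. 

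**Figure D1:**
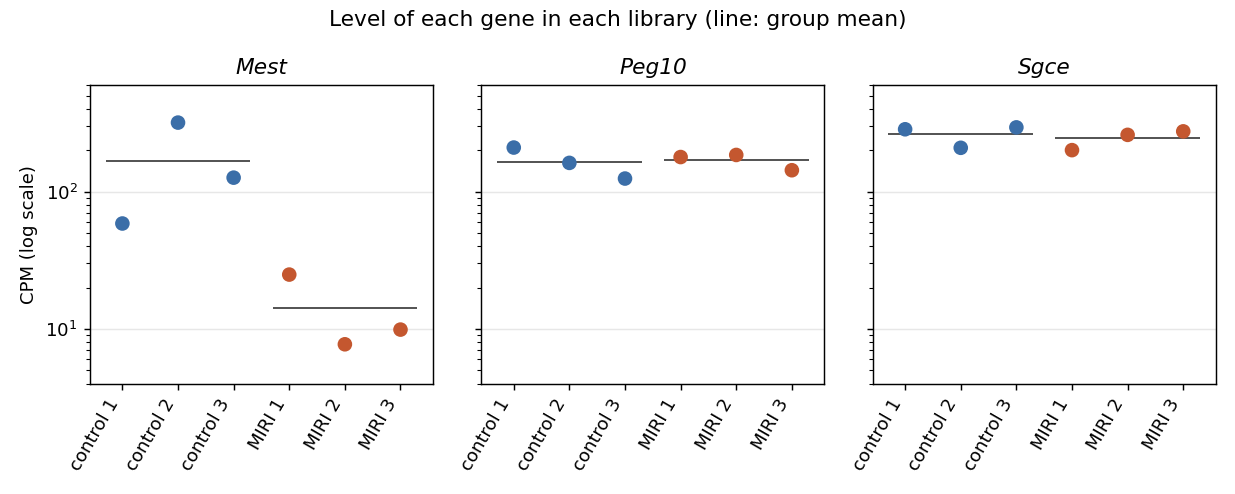
Levels in CPM (log axis) of Mest, Peg10 and Sgce in the 3 control and 3 MIRI libraries, 1 point per library, with a line at each group mean. The Mest points of MIRI, 7.73 to 24.9 CPM, lie below all controls, 58.7 to 319 CPM, while those of Peg10 and Sgce overlap.

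Peg10, the retrotransposon-derived gene, was at about the same level in both groups. It had 1549, 1185 and 1154 counts in controls and 1330, 1271 and 1059 in MIRI. As levels these were 209.8, 162 and 125 CPM against 179, 185 and 143 CPM, so that control 1 was highest and control 3 lowest and the MIRI libraries lay between them. The means were 165.6 ± 42.6 and 169.2 ± 22.6 CPM, and the log2 fold change was 0.04 ± 0.18. Its sign changed with single libraries, from -0.11 to 0.24 when each was left out in turn.

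Sgce, the sarcoglycan gene, also overlapped between the groups. Its counts were 2105, 1526 and 2723 in controls and 1493, 1781 and 2033 in MIRI, which are 285, 209 and 294 against 201, 259.6 and 275 CPM. Control 2 and MIRI 1 were the low libraries, each below the other 4. Means were 262.8 ± 46.9 and 245.3 ± 39.3 CPM with a log2 fold change of -0.09 ± 0.19, which ran from -0.25 to 0.06 when single libraries were left out. The same libraries, control 2 and MIRI 1, had the lowest summed markers of several cell types. For leukocyte markers they were at 86.0 and 92.6 CPM, against 123 to 146 CPM in the others, for fibroblast markers at 52500 and 54080 CPM, against 55140 to 71290 CPM, and for pericyte and smooth muscle markers at 115 and 132 CPM, against 144 to 182 CPM. These sums were low in the same libraries as Sgce, and their part in its spread was not tested. The endothelial and adipocyte sums were also lowest in MIRI 1 but highest in control 2, at 803 and 13.1 CPM. So was the single fibroblast marker Thy1, at 816 CPM in control 2.

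The 3 genes differed in how far replicates of a group lay apart. The SD of log2 CPM between replicates was 1.05 for Mest, 0.30 for Peg10 and 0.26 for Sgce. From lowest to highest library, Mest spanned 5.44-fold in controls and 3.22-fold in MIRI. In the 4979 genes that averaged 5 CPM or more, the median span was 1.26-fold in controls and 1.29-fold in MIRI, and 0.281% and 1.21% of genes spanned more than Mest. Peg10 spanned 1.68-fold and 1.29-fold, and Sgce 1.41-fold and 1.37-fold. Mest was thus variable within each group as well as between them.

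Levels can be set side by side only per length, here as CPM per kb of exon. Peg10 was at 24.8 ± 6.39 CPM per kb in controls and Sgce at 24.8 ± 4.42. In MIRI they were at 25.4 ± 3.38 and 23.1 ± 3.70 CPM per kb, so the head-to-head genes lay close to each other in both groups. Library by library, the ratio of Peg10 to Sgce per kb was 1.17, 1.24 and 0.675 in controls and 1.42, 1.14 and 0.829 in MIRI, lowest in the third library of each group. Replicate numbers tie no samples together in the labels.

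Mest, over the 3033 bp it does not share with Copg2, was at 19.3, 105 and 41.7 CPM per kb in controls and at 8.21, 2.55 and 3.26 in MIRI. It was below both other genes in control 1, above both in controls 2 and 3, and below both in every MIRI library. Its order among the 3 genes therefore changed within the control group. The pairwise correlations of log2 CPM were -0.297 for Mest and Peg10, -0.212 for Mest and Sgce and -0.127 for Peg10 and Sgce. These are descriptions over the same 6 libraries, which share their groups and depth.

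The genes tested around Mest lay near a log2 fold change of 0. Within 500 kb of its outermost annotated start, 19 genes had a row and 7 were tested. Their log2 fold changes ran from -0.09 to 0.20 with a median of 0.01, and 0 of 7 had groups that did not overlap, where 5.48% of the 6150 genes tested by position had MIRI wholly below control and 3.43% wholly above. Copg2, a coat protein gene antisense to the end of Mest, was at 68.9, 82.3 and 75.1 CPM in the controls, against 67.5, 71.6 and 72.7 CPM (-0.09 ± 0.11). Cep41, a centrosomal protein gene that starts 29.8 kb before that outermost Mest start, had 0.20 ± 0.16. The others were Ube2h (0.01 ± 0.11) and Klhdc10 (0.02 ± 0.10), both of ubiquitin ligation, the nuclear membrane gene Tmem209 (0.12 ± 0.11), Zc3hc1 (-0.06 ± 0.21) and the long noncoding RNA Lncpint (0.01 ± 0.20). None of the 7 was near the Mest value.

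The row of Mir335, the hairpin inside Mest, had 6, 14 and 13 counts in controls and 2, 0 and 7 in MIRI, too few to be tested. The libraries did not select small RNAs, so these counts are not a level of the mature miR-335 forms shown above. Of the genes in the fixed list of Mest neighbours, some of them described above, 12 of 20 were tested in all (5 higher, 7 lower, median -0.01), and 0 passed in edgeR. The member farthest from 0 was Plxna4, a semaphorin coreceptor (-2.48 ± 0.39, 9.37 ± 3.83 against 1.66 ± 0.407 CPM), measured over 1.5% of its exons and with groups apart. Its edgeR adjusted p was 0.14. The DESeq2 test called it lower, as did edgeR with no low-count filter or without control 1. It was the 1 gene of this list with an unadjusted p under 0.05. At that p, 1.63% of all genes tested by position were higher and 2.85% lower. Mkln1 (-0.15 ± 0.09), with groups apart, and Irf5 (0.29 ± 0.22) came next with Cep41. Of all genes tested by position, 5.48% had MIRI wholly below control and 3.43% wholly above.

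Around Peg10 and Sgce, 7 of 23 genes within 500 kb were tested, and their log2 fold changes ran from -0.31 to 0.49. Col1a2, a collagen I chain gene, had 12210 ± 2096 CPM in controls and 14600 ± 1881 in MIRI (0.27 ± 0.20). Ppp1r9a, a neurabin gene that is imprinted in some tissues, was at 56.7, 56.8 and 68.5 CPM in the controls, against 52.9, 45.0 and 49.0 CPM (-0.31 ± 0.12), the 1 gene of the 7 with groups that did not overlap, where 5.48% of all genes tested by position had MIRI wholly below control and 3.43% wholly above. The predicted gene Gm43921, at the Col1a2 locus, had 0.37 ± 0.13 and an edgeR adjusted p of 0.944. Casd1, a sialic acid acetyltransferase gene next to Sgce, had 0.01 ± 0.12. The predicted genes Gm44432 (0.37 ± 0.28), Gm26814 (0.49 ± 0.42) and Gm44250 (-0.08 ± 0.20) complete the window. No neighbour on either side passed the test.

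**Figure D2:**
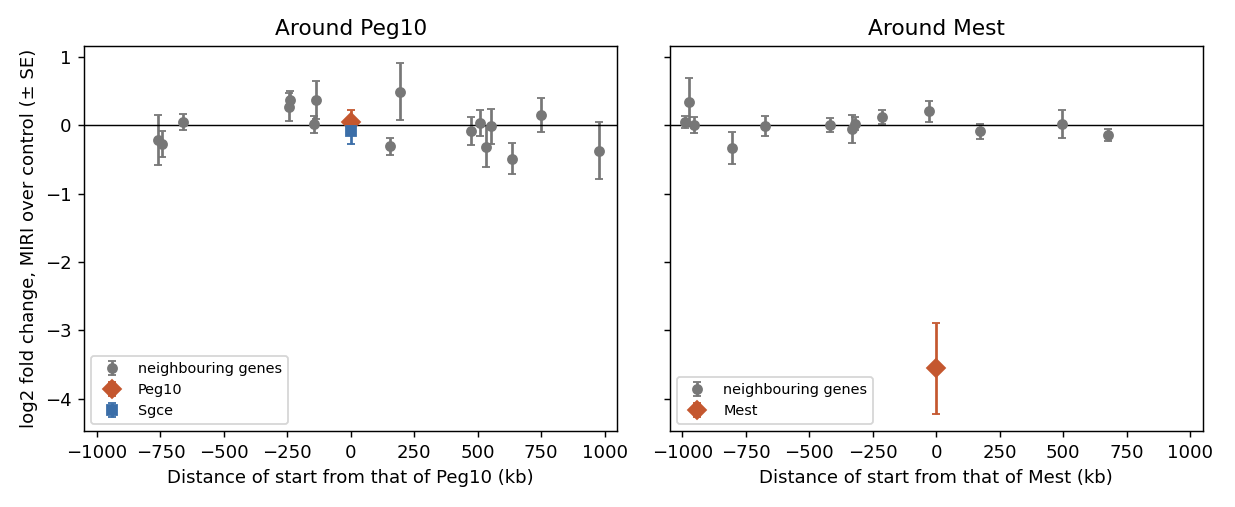
Log2 fold change, MIRI over control (error bars, SE), of the genes tested by position within 1000 kb of Peg10 (left, with Sgce) and of Mest (right), against the distance of their start from that of Peg10 or Mest in kb. Starts are the outermost annotated ones. Mest stands at -3.56, while the genes tested within 500 kb of it lie between -0.09 and 0.20.

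The wider list of Peg10 and Sgce neighbours reaches to both sides and includes genes described above. It had 14 tested genes of 18 (6 higher, 8 lower, median -0.11). By edgeR, DESeq2 and limma-voom 0 of 14 passed, and 1, Ppp1r9a described above, had an unadjusted p under 0.05. At that p, 1.63% of all genes tested by position were higher and 2.85% lower. Asb4, an ankyrin repeat gene of the same imprinted region, had 7.28 ± 1.10 and 5.14 ± 0.822 CPM (-0.49 ± 0.23) with groups apart. Over all genes tested by position, MIRI lay wholly below control in 5.48% and wholly above in 3.43%. Gng11, a G protein gamma subunit gene, had -0.28 ± 0.19. The paraoxonase genes Pon2 and Pon3 were at -0.02 ± 0.25 and 0.02 ± 0.19, and Tfpi2, an inhibitor of serine proteases, at -0.21 ± 0.36. These last 3 genes were chosen after their values were seen.

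The list of other imprinted genes held members on both sides of 0. Of 64 listed, 25 had a row by position and 18 were tested, 10 higher and 8 lower, with a median log2 fold change of 0.02, where 52.8% of all genes tested were higher and the median was 0.01. By edgeR (0% of all genes in either direction), DESeq2 and limma-voom 0 of 18 passed, 2 had an unadjusted p under 0.05 (1.63% of all genes tested by position were higher at that p and 2.85% lower), and the values ran from -0.62 to 0.71. Of the 18, the 6 genes Asb4, Ppp1r9a, Tfpi2, Pon2, Pon3 and Copg2 are neighbours already described (1 higher, 5 lower, median -0.15), and the 12 that lie elsewhere had 9 higher and 3 lower, with a median of 0.10. Dcn, a collagen-binding proteoglycan gene, was lowest (27.2 ± 6.64 against 17.7 ± 2.88 CPM, -0.62 ± 0.23, edgeR adjusted p = 0.985), and its groups overlapped. Gnas, the gene of the stimulatory G protein alpha subunit, was highest, at 0.71 ± 0.40 over 10.6% of its exons. That value rests on 9 to 19 counts per library (1.37 ± 0.404 against 2.23 ± 0.763 CPM). Ppp1r9a and Asb4 had the other small p values.

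Several imprinted genes that are often read together with Mest were measured over part of their exons and lay close to 0, chosen here after their values were seen. The noncoding RNAs Meg3 and Rian of the Dlk1 cluster were at 0.10 ± 0.26 and 0.19 ± 0.19, with 90.3 ± 24.3 against 95.4 ± 29.9 CPM and 443 ± 82.6 against 501 ± 97.1 CPM. Peg3, a zinc finger gene, was at -0.07 ± 0.25, H19 at -0.01 ± 0.37 from 5.58 and 5.62 CPM, and the IGF2 receptor gene Igf2r at 0.02 ± 0.09. The rows covered 21.1% of the exons of Meg3, 23.6% of Rian, 50.6% of Peg3, 55.8% of H19 and 2.88% of Igf2r. Dlk1, Igf2, Cdkn1c, Plagl1, Grb10, Ndn and Nnat were not analysed here, since no row could be assigned to them.

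**Figure D3:**
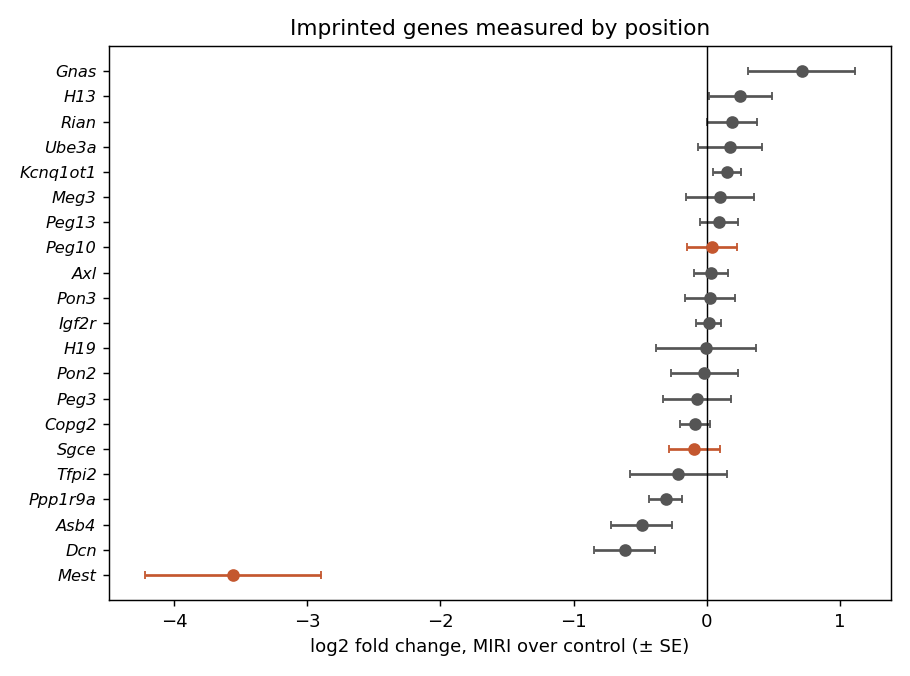
Log2 fold change, MIRI over control (error bars, SE), of Mest, Peg10, Sgce and the 18 other imprinted genes tested by position. Mest at -3.56 lies outside the range of the others, -0.62 to 0.71, and Peg10 and Sgce lie inside it. Most of the 18 were measured over only part of their exons.

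Lists of genes tied to a member by protein complex, by descent or by field of study had small median log2 fold changes too. In the dystrophin-glycoprotein list of Sgce, 10 of 25 genes were tested, 2 higher and 8 lower, with a median of -0.03. Over all genes tested by position, 52.8% were higher. The direction of the list median depended on single libraries, and was 0.08 without MIRI 1. Utrn, the utrophin gene, had 265 ± 15.3 and 236 ± 10.5 CPM (-0.16 ± 0.09), with MIRI below control. The dystrobrevin gene Dtnb (0.36 ± 0.16) and Pomt2, a mannosyltransferase gene of dystroglycan (0.28 ± 0.14), had MIRI above control. Over all genes tested by position, MIRI lay wholly below control in 5.48% and wholly above in 3.43%. Utrn, Dtnb and Pomt2 were measured over 5.11%, 6.82% and 4.74% of their exons. Sntb2, a syntrophin gene, was at -0.22 ± 0.17. The partners beta-sarcoglycan (Sgcb, -0.01 ± 0.23) and dystroglycan (Dag1, -0.01 ± 0.16), named after their values were seen, lay as near 0 as Sgce. By edgeR, DESeq2 and limma-voom 0 of 10 passed, and 0 had an unadjusted p under 0.05.

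Of 19 Gag-derived relatives of Peg10, 3 were tested: Zcchc12 (-0.37 ± 0.52), Rtl6 (-0.08 ± 0.43) and Arc (-0.01 ± 0.34), a neuronal capsid-forming gene. In the list on fat tissue and Wnt coreceptors, fields in which Mest has been studied, 8 of 23 genes were tested, 2 higher and 6 lower, with a median of -0.06 that was 0.06 without MIRI 1. Cav1, the caveolin of fat cells and endothelium, had 1930 ± 516 and 1426 ± 123 CPM (-0.42 ± 0.19). Npr3, a natriuretic peptide receptor gene, was at -0.38 ± 0.27, Pdgfra at 0.20 ± 0.17 and the coreceptor gene Lrp5 at -0.09 ± 0.23. Lrp5 and Rtl6 were measured over 0.986% and 1.94% of their exons. None of the tested genes of these lists passed by edgeR, DESeq2 or limma-voom, and 0 had an unadjusted p under 0.05.

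The genes most like Mest over the libraries were sought by the correlation of log2 CPM over the 6 libraries, taking the 4978 other genes that averaged 5 CPM or more. The first 5 were Nrarp, a Notch-regulated gene (r = 0.994), Card10 (0.992), Stab1, a scavenger receptor gene of sinusoidal endothelium and macrophages (0.991), Dennd5b (0.990) and Entpd1, an ectonucleotidase gene (0.989). Stab1 and Entpd1 were measured over 1.69% and 4.68% of their exons. Nrarp had 4.88, 20.9 and 8.76 CPM in controls and 2.69, 0.437 and 0.677 in MIRI. Entpd1 had 9.48, 123 and 33.7 CPM against 7.13, 1.17 and 1.63. In both, as in Mest, control 2 was highest, then control 3, control 1, MIRI 1, MIRI 3 and MIRI 2. Of all genes compared, 21 had this order. The least like were Arfrp1 (-0.991) and Aurkaip1 (-0.969), whose levels moved little.

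Several endothelial markers shared the library order of Mest. Pecam1, which joins neighbouring endothelial cells, was at 74.8, 355 and 242 CPM in the controls, against 19.1, 1.75 and 4.33 CPM in the MIRI libraries. Pecam1, Tie1 and Vwf, which encode this junction protein, a receptor kinase and a clotting protein of endothelium, had the very order of libraries seen for Mest. Of 15 listed endothelial markers 7 had a row by position, all 7 were lower in MIRI, 6 with groups apart (5.48% of all genes tested by position had MIRI wholly below control), and the median log2 fold change was -4.74. Their summed level was 320.2, 803 and 655 CPM in the controls, against 173, 219 and 210.5 CPM. Most of the MIRI sum came from Eng, with a log2 fold change of -0.38. Pecam1, Tie1 and Vwf were measured over 32.55%, 31.93% and 13.3% of their exons. For Tek, Eng, Robo4 and Emcn this was 5.56%, 5.26%, 9.37% and 1.98%. In bulk RNA, fewer cells of a type and less RNA per cell cannot be told apart. Pecam1, Tie1 and Vwf move with Mest, while Eng and Tek were highest in control 3, at 268.5 and 13.7 CPM. The part of endothelial markers in the Mest difference was not tested.

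Ratios of Mest to endothelial markers rest on few marker counts in MIRI. In MIRI 1 to 3, Pecam1 had 142, 12 and 32 counts, Tie1 43, 0 and 8, and Vwf 41, 7 and 12. Such counts cannot settle whether the ratios below differ between markers. The ratio of Mest to Pecam1 CPM was 0.784, 0.898 and 0.522 in controls and 1.3, 4.42 and 2.28 in MIRI, higher in each MIRI library than in any control. The ratio of Mest to Vwf was 5.70, 6.05 and 2.87 in controls and 4.51, 7.57 and 6.08 in MIRI, so here the groups overlapped. For Tie1 it was 2.52, 2.68 and 1.69 in controls and 4.30 and 9.12 in MIRI 1 and 3, with no ratio in MIRI 2, where Tie1 had 0 counts. Control over MIRI, the ratio of means was 26.7 for Pecam1, 31.6 for Tie1 and 13.1 for Vwf, against 11.9 for Mest. These markers were taken because they share the library order of Mest. Of the others, Tek (log2 fold change -1.15 ± 0.25) and Eng (-0.38 ± 0.20) fell less than Mest (-3.56 ± 0.66, by position). Robo4 (-5.95 ± 0.74) and Emcn (-7.80 ± 1.21), both at few counts, fell more. Tek, Eng, Robo4 and Emcn were each measured over a small part of their exons.

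**Figure D4:**
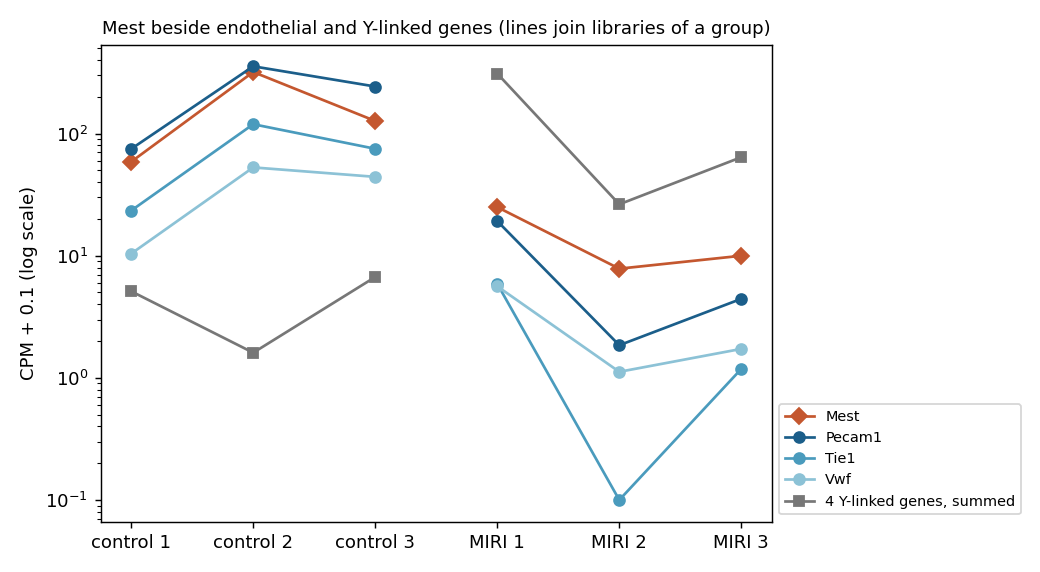
CPM plus 0.1 (log axis) of Mest, Pecam1, Tie1, Vwf and the sum of 4 Y-linked genes in each of the 6 libraries, with lines joining the libraries of a group, which have no order. Mest, Pecam1, Tie1 and Vwf were highest in control 2 and lowest in MIRI 2, where Tie1 had 0 counts, while the Y-linked sum was higher in MIRI (26.2 to 309.6 CPM) than in controls (1.51 to 6.59 CPM).

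Peg10 and Sgce had other likenesses. Nearest to Peg10 were H6pd (r = 0.956), a pentose phosphate pathway gene of the endoplasmic reticulum, Gm23209 (0.954), Clasrp (0.953), Rnf111 (0.944) and the glycolytic gene Aldoa (0.940), and farthest were Trpm6 (-0.950) and Aup1 (-0.939). Aldoa was at 1475, 1447 and 1231 CPM in the controls, against 1473, 1458 and 1273 CPM, again with the third library of each group lowest. Nearest to Sgce were Npdc1 (0.997), the transcription factor gene Zeb2 (0.996), Iqcn (0.995), Itfg1 (0.993) and Zbtb44 (0.992), and farthest were Prpf19 (-0.996) and Khdrbs1 (-0.994). Zeb2 had 523, 394 and 546 CPM against 369, 476 and 526 CPM, with control 2 and MIRI 1 lowest as for Sgce. The same order of libraries as in Sgce was found in 18 genes, and that of Peg10 in 2.

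Markers of the labelled tissues and of other cells give the setting of these values. Total counts per library ran from 6859481 to 9250952, so that 1 count was 0.108 to 0.146 CPM. Fibroblast and matrix markers were abundant (52500 to 65560 CPM in controls, 54080 to 71290 in MIRI, 8 of 12 measured). Of the cardiomyocyte markers 4 of 12 had a row by position, and they summed to at most 1.35 CPM. Myh6 and Actn2 were at 0 in all libraries, but their rows cover 5.38% and 2.08% of their exons, so these values do not show how much heart RNA was present. For cartilage and disc 2 of 11 markers had a row (at most 1.92 CPM), with Acan covered over 15.5% and Krt19 over 8.41% of exons, which limits them in the same way. Photoreceptor markers (5 of 12) reached 20.6 CPM, nearly all from Opn1sw, and adipocyte markers (3 of 7) 13.1 CPM. Skeletal muscle (4 of 10, at most 2.19 CPM), erythroid (5 of 7, at most 6.81 CPM) and pericyte and smooth muscle markers (4 of 10, 115 to 182 CPM) overlapped in range between the groups. Transcripts of 4 genes of the Y chromosome (Ddx3y, Eif2s3y, Kdm5d, Uty) summed to 1.51 to 6.59 CPM in controls and to 309.6, 26.2 and 63.9 CPM in MIRI 1 to 3. They differ between the same groups as Mest, and their part was not tested.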

How the data were processed

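The counts the authors deposited are whole read pairs for each gene name, made with featureCounts 2.0.1 on exons, without a strand setting, per the file headers. Bowtie 0.12.2 is listed in the submitters' processing notes, and the aligner and annotation build behind these counts are not given in the sources used here. Deposited FPKM values (6 columns) were not used. Counts of deposited rows, and counts summed over rows by the GRCm38 (GENCODE M21) gene holding at least 80% of the exon bases they overlap and at least 50 bp (bedtools 2.31.1), were each fitted for MIRI against control with edgeR 4.0.16 (TMM, filterByExpr, quasi-likelihood test, two-sided, Benjamini-Hochberg threshold 0.05) in R 4.3.3. By position, 12272 genes with 64.9% of counts were named, on the untested assumption that the reads were placed on GRCm38. CPM are per total counts of the library, and the correlations used TMM-scaled log2 CPM with a prior count of 2. Scripts were tested on simulated data.

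By position, 0 higher and 0 lower of 6150 genes passed, with 100 and 175 at an unadjusted p under 0.05. DESeq2 1.42.0 and limma 3.58.1 (voom) were alternatives. Besides Mest, Peg10 and Sgce, genes named are the 4 with the smallest p of each list, all tested neighbours within 500 kb, the 5 most and 2 least like each member, and cell type markers. Other genes are said to be chosen after their values were seen. Members and lists were chosen with earlier results of these data known. The labels do not say whether samples came from separate animals, so the errors and p-values measure a spread that may be technical.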

Additional observations from a re-analysis of the deposited data

How the results depend on the processing

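The log2 fold changes of Mest, Peg10 and Sgce kept their direction and size in DESeq2 size factors, upper-quartile factors, total counts, both other filters, the DESeq2 test, limma-voom, the fit by position and the replicate block. Over these, Mest ran from -3.58 to -3.37, Peg10 from 0.03 to 0.06 and Sgce from -0.10 to -0.09. Leaving out 1 library gave -4.20 to -2.75, -0.11 to 0.24 and -0.25 to 0.06.

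The count of rows called, 0 in each direction, became 124 higher and 231 lower with no filter on low counts and 8 and 77 with the DESeq2 test. By position these were 4 and 26, and 9 and 50. With single libraries left out, there were 0 higher and 0 to 31 lower rows, the 31 without control 1, and by position 0 higher and 0 to 15 lower genes, with 15, 2 and 1 without controls 1, 2 and 3. The cause was not tested. The other settings called 0. With a replicate block there were 0 calls by either naming, and Mest was at -3.37, Peg10 at 0.06 and Sgce at -0.09. Deviations of samples with the same number correlated at -0.15, -0.27 and 0.15, and those of samples with different numbers at -0.29 to 0.38. With 3 libraries per group, these values cannot settle whether the numbers pair the samples.

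Depth limits Mir335 and most tissue markers, which had few counts. The alternative by position for the members was chosen after seeing the data.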
